A study of Homo sapiens with 4 samples.

Results

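The HOX genes were examined as the 39 genes of 61806 in the deposited table whose symbol is HOX followed by A, B, C or D and a paralogue number. Of these, 11 lie in the HOXA cluster on chromosome 7, 10 in HOXB on chromosome 17, 9 in HOXC on chromosome 12 and 9 in HOXD on chromosome 2. RNA was sequenced from JJ012, a human chondrosarcoma cell line, and 143B, a human osteosarcoma cell line, both kept detached in suspension. Each line gave 1 untreated control library and 1 library from cells given 1 mM melatonin, the indoleamine hormone of the pineal gland, for 72 h. With 4 libraries and 1 per condition there is no replicate error within a line, so no test within a line was possible, intervals cover counting error only, and the line and its library cannot be told apart. The table's treated columns carry the suffix T, which was read as melatonin. Values are given in the order control then melatonin.

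HOX genes encode homeodomain transcription factors that tell cells where they lie along the body axis and the limbs. Genes with low paralogue numbers sit at the 3′ end of each cluster and act in the hindbrain and neck, while those with high numbers sit at the 5′ end and act in the lower trunk, the limbs and the tail. Paralogues, the genes that share a number across clusters, arose by duplication of an ancestral cluster and bind similar DNA, commonly together with PBX and MEIS proteins. Mesenchymal and skeletal cells of the adult keep much of the HOX pattern of their site of origin, and tumour lines carry such a pattern as a trace of position, at times altered. Below, numbers 1 to 3 are called anterior, 4 to 8 central and 9 to 13 posterior.

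The libraries held 15889564 to 19218343 counts, and 3 counts, the floor used here, correspond to 0.156 to 0.189 CPM, the count scaled to a fixed library total. HOX genes took 7713 and 3497 counts in JJ012 and 8256 and 7509 in 143B. Levels are compared between genes as FPKM, which corrects for exonic length. The labelled tissue types were weakly marked. SOX9, the chondrocyte regulator, stood at 15.1 and 6.16 FPKM in JJ012 and 15.5 and 12.1 FPKM in 143B, whereas the cartilage collagen COL2A1 had 0 counts in both JJ012 libraries. The osteoblast regulator SP7 had 0 and 1 counts in 143B, and the bone collagen gene COL1A2 also had 0 and 1 counts, while RUNX2 stood at 4.28 and 2.75 FPKM. In JJ012 COL1A2 went from 2594 to 24 counts and COL1A1 from 1891 to 112 counts with melatonin, in the same direction as the HOX genes below. Of the 6 blood and endothelial markers 1 or 2 reached 1 FPKM in each library, and of the 5 epithelial markers 0 to 2 did. Over all 9 chondrocyte markers the summed level was 18.5 and 7.35 FPKM in JJ012 and 17.4 and 14.0 FPKM in 143B, and over 8 osteoblast markers it was 107 and 68.3 FPKM in JJ012, led by SPP1, and 6.97 and 5.08 FPKM in 143B. The summed blood and endothelial level went from 12.2 to 4.16 FPKM in JJ012, led by CD3E, and from 2.53 to 2.08 FPKM in 143B, and the epithelial sum went from 4.13 to 1.52 FPKM and from 1.66 to 1.57 FPKM. The part of these markers in any HOX value was not tested.

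The homeobox, the stretch that codes for the DNA-binding homeodomain, shows how alike paralogues from different clusters are. It was found in all 39 genes, and the posterior groups 9 and 10 are shown because HOXB9 and HOXC10 were the highest HOX genes of 143B and JJ012, and HOXA10 was listed at 0 in JJ012. Each run of 180 bases is read 5′ to 3′ on the coding strand from GENCODE release 29 transcripts (GRCh38), lies in exon 2 of 2, and has in capitals the codons of the conserved motif in the third helix by which it was located. HOXB9 is at chr17:48622921-48623100 (minus strand), HOXC9 at chr12:54002465-54002644 (plus), HOXD9 at chr2:176123969-176124148 (plus), HOXA10 at chr7:27171947-27172126 (minus) and HOXC10 at chr12:53989219-53989398 (plus).
HOXB9: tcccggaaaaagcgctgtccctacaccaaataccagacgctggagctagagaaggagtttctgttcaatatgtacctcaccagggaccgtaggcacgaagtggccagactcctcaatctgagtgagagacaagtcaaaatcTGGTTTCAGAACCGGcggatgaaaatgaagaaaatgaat
HOXC9: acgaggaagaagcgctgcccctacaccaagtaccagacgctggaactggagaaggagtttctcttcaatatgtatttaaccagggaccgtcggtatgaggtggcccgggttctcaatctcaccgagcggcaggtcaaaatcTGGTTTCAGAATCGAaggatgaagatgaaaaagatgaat
HOXD9: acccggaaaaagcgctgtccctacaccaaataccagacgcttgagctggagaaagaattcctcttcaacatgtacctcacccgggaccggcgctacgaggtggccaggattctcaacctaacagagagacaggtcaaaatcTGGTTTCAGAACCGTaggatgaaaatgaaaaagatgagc
HOXA10: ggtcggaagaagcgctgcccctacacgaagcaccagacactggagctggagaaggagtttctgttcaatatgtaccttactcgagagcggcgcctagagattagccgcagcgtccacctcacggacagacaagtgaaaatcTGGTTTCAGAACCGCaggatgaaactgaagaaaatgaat
HOXC10: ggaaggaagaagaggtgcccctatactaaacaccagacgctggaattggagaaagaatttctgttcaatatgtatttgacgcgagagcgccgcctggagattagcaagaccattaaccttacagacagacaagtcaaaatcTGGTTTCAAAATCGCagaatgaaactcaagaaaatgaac
HOXB9 and HOXC9 shared 82.2% of these bases, HOXB9 and HOXD9 84.4%, and HOXA10 and HOXC10 81.7%, while the encoded residues were 93.3%, 91.7% and 93.3% identical. Over all 42 pairs with the same number the median was 81.7% of bases (range 69.4% to 90.6%), against 61.4% over 172 pairs from the same cluster with different numbers. The longest exact run shared by any pair of homeoboxes was 51 bases, shorter than the reads of 150 bases.

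The promoters of a HOXA gene that was present in both lines and of one that was listed at 0 in JJ012 are shown for comparison, since the 2 genes lie within the same cluster. They are the bases just before the RefSeq start (GRCh38.p14), with the CG dinucleotides, the sites of DNA methylation, in capitals. HOXA4 is at chr7:27130758-27131007 and HOXA9 at chr7:27165538-27165787, both on the minus strand.
HOXA4: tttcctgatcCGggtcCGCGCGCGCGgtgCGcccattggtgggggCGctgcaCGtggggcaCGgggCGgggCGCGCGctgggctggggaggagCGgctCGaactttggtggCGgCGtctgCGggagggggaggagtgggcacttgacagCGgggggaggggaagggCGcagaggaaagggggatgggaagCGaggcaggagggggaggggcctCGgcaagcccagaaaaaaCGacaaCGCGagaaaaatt
HOXA9: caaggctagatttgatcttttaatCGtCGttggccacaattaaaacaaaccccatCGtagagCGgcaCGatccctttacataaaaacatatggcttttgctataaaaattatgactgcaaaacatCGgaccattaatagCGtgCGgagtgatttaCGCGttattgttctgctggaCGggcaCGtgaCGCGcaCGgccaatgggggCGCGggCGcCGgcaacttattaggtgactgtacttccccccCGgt
The whole RefSeq promoter window, which runs past the start, held 27 CG in HOXA4, a number that 28.2% of 35116 promoters reached, and 22 in HOXA9, which 37.7% reached. The median was 22 over 27 promoters of 20 HOX genes and 14 over all promoters. Among HOXA genes with 1 count or fewer in JJ012 the number ranged from 13 in HOXA11 to 44 in HOXA13, on both sides of that in HOXA4. The counts describe these letters only, and methylation was not measured.

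JJ012 and 143B expressed different parts of the HOX complement. At 1 FPKM or more stood 17 and 16 HOX genes in JJ012 and 26 and 27 in 143B. Over all genes the order was the reverse, with 14477 and 14119 at 1 FPKM or more in JJ012 and 13212 and 13198 in 143B. HOXC made up 71.2% and 71.0% of the summed HOX FPKM of JJ012, whereas HOXB made up 54.1% and 54.5% in 143B. HOXA took 5.51% and 4.35% in JJ012 and 15.7% and 14.9% in 143B, and HOXD took 1.85% and 3.76% in JJ012 and 7.13% and 8.6% in 143B. By position, the posterior genes held 65.0% and 68.4% of the sum in JJ012 and 55.1% and 55.2% in 143B. The anterior share was 6.51% and 6.94% against 15.1% and 14.8%. Much of the posterior share in JJ012 lay in group 10, led by HOXC10, with 41.3% and 48.8% of the sum. In 143B group 9, led by HOXB9, held 34.1% and 35.1%. By number, 6 of 16 posterior and 9 of 15 central genes reached 1 FPKM in each JJ012 library. In each 143B library 11 of 16 and 11 of 15 did. In bulk RNA a lower level can mean fewer cells with the transcript or less of it per cell, which cannot be told apart.

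**Figure D1:**
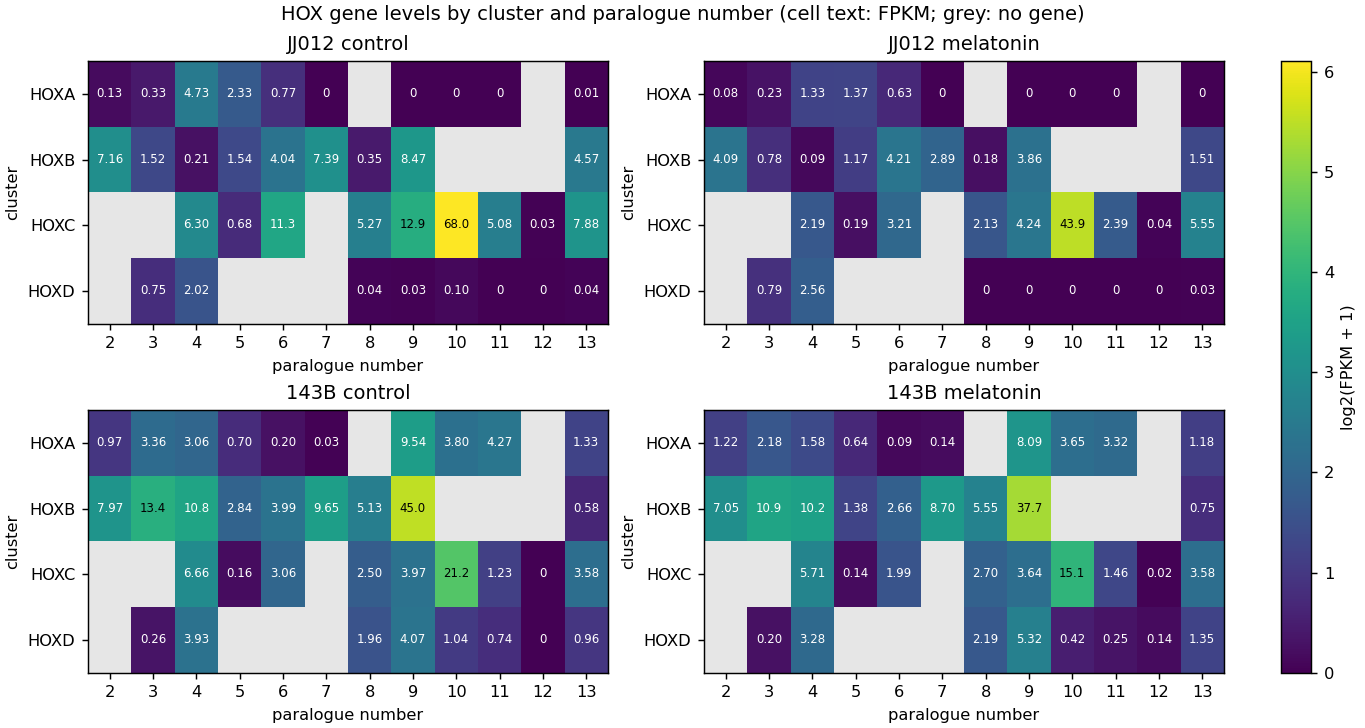
Level of the HOX genes in each of the 4 libraries, with clusters as rows, paralogue numbers 2 to 13 as columns, FPKM printed in the cells and log2(FPKM + 1) as colour; grey cells have no gene. HOXC10 stands out in JJ012 (68.0 and 43.9 FPKM), HOXB9 in 143B (45.0 and 37.7 FPKM), and the right-hand HOXA and HOXD cells are near 0 in JJ012.

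**Figure D2:**
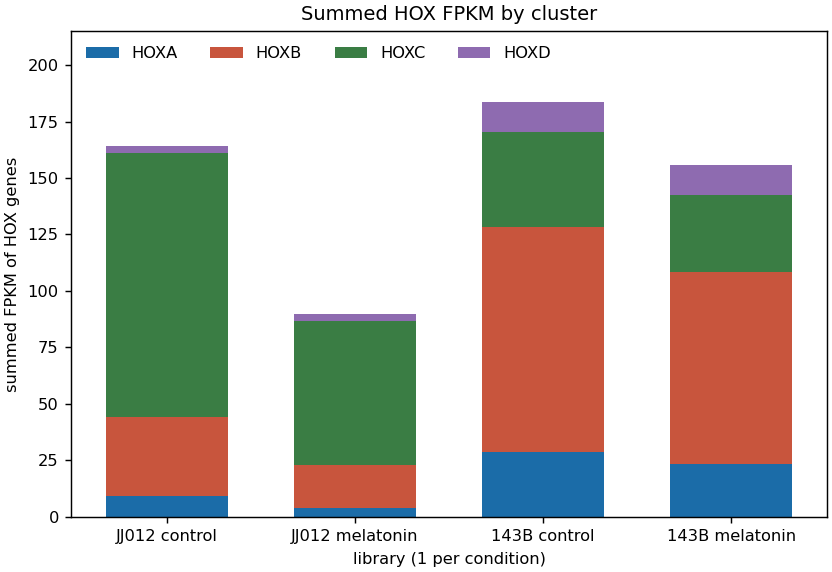
Summed FPKM of the HOX genes in each library (bars from 0, 1 library each), divided by cluster. The sum was 165 and 90.0 FPKM in JJ012, mostly HOXC, and 184 and 156 FPKM in 143B, mostly HOXB.

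A total of 15 genes reached 1 FPKM in both lines, 13 in 143B only and 2, HOXA5 and HOXB13, in JJ012 only. The other 9 stayed below 1 FPKM in all libraries. These were HOXA6 and HOXA7 (0 to 0.77 FPKM), HOXB1 (0 to 0.03 FPKM), HOXC5 and HOXC12 (0 to 0.68 FPKM), and HOXD1, HOXD3, HOXD11 and HOXD12 (0 to 0.79 FPKM). HOXB1 and HOXC12 had 3 counts or fewer everywhere. In the controls alone, 15 of the 28 HOX genes at 1 FPKM or more in either reached it in both, beside 10760 of all 16929 genes. Across the 39 genes, log2(FPKM + 1) of the JJ012 control correlated with that of the 143B control at r = 0.524 (Pearson) and rho = 0.433 (Spearman), whereas control and melatonin correlated at r = 0.963 within JJ012 and r = 0.982 within 143B. These are descriptions across genes, which share libraries and are not independent replicates.

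Among the anterior genes, HOXB2, which patterns hindbrain segments, was alike in the control libraries at 7.16 and 4.09 FPKM in JJ012 and 7.97 and 7.05 FPKM in 143B. HOXB3, a gene of the hindbrain and pharyngeal region, had 1.52 and 0.78 FPKM in JJ012 and 13.39 and 10.93 FPKM in 143B, without overlap of the lines. The other anterior genes of note lie in HOXA. HOXA2, the selector gene of the second pharyngeal arch, stood at 0.13 and 0.08 FPKM in JJ012 and at 0.97 and 1.22 FPKM in 143B. HOXA3, which acts in derivatives of the third arch such as the thymus, stood at 0.33 and 0.23 FPKM in JJ012 and at 3.36 and 2.18 FPKM in 143B. Both were higher in both 143B libraries than in either JJ012 library.

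Of the central genes, paralogue group 4 acts in the neck vertebrae. HOXA4 had 4.73 and 1.33 FPKM in JJ012 and 3.06 and 1.58 FPKM in 143B, with overlapping ranges. HOXC4 had 6.30 and 2.19 FPKM in JJ012 and 6.66 and 5.71 FPKM in 143B, and HOXD4 had 2.02 and 2.56 FPKM and 3.93 and 3.28 FPKM. HOXB4, known for its role in blood stem cells, differed most within the group, at 0.21 and 0.09 FPKM in JJ012 and 10.78 and 10.16 FPKM in 143B. HOXA5, a regulator of lung and of the neck to thorax boundary, was the reverse at 2.33 and 1.37 FPKM in JJ012 and 0.70 and 0.64 FPKM in 143B. HOXB5 and HOXB6 act around the level of the forelimb. HOXB5 stood at 1.54 and 1.17 FPKM in JJ012 and 2.84 and 1.38 FPKM in 143B. HOXB6 stood at 4.04 and 4.21 FPKM in JJ012 and 3.99 and 2.66 FPKM in 143B, nearly equal in the controls. HOXC6, a thoracic gene, reached 11.29 FPKM in the JJ012 control, above all 3 other libraries at 3.21 FPKM with melatonin and 3.06 and 1.99 FPKM in 143B. HOXB7 had 7.39 and 2.89 FPKM in JJ012 and 9.65 and 8.70 FPKM in 143B. Group 8 acts in the thoracic and upper lumbar trunk. HOXB8 had 0.35 and 0.18 FPKM in JJ012 and 5.13 and 5.55 FPKM in 143B, HOXC8 had 5.27 and 2.13 FPKM and 2.50 and 2.70 FPKM, and HOXD8 had 0.04 and 0 FPKM and 1.96 and 2.19 FPKM. HOXB8 and HOXD8 did not overlap between the lines, whereas the 143B values of HOXC8 lay between the 2 JJ012 values.

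The highest HOX gene of each line was posterior. HOXC10, which belongs to the group that makes vertebrae without ribs and is used in the hindlimb, had 67.99 and 43.94 FPKM in JJ012 and 21.18 and 15.09 FPKM in 143B. The counting intervals of the JJ012 values were 65.6 to 70.4 and 41.9 to 46.1 FPKM, well above the next gene in each library. In the control this was HOXC9 at 12.87 FPKM, whose interval of 11.7 to 14.2 overlapped that of HOXC6. HOXB9, a gene of the thoracic region, had 8.47 and 3.86 FPKM in JJ012 and 44.95 and 37.71 FPKM in 143B. It led 143B, followed by HOXC10 and HOXB3, with intervals apart for these 3 in the control. Below these, neighbours in that library mostly overlapped in their intervals, as HOXB4, HOXB7 and HOXA9 did at 10.78, 9.65 and 9.54 FPKM.

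The rest of paralogue group 9 was split by line. HOXA9, known for its role in blood progenitors and leukaemia, was listed at 0 in both JJ012 libraries and stood at 9.54 and 8.09 FPKM in 143B. HOXC9, which defines thoracic motor neurons, had 12.87 and 4.24 FPKM in JJ012 and 3.97 and 3.64 FPKM in 143B. HOXD9, a limb gene, had 0.03 and 0 FPKM in JJ012 and 4.07 and 5.32 FPKM in 143B. Thus all 4 members of the group were present in 143B and only HOXB9 and HOXC9 passed 1 FPKM in JJ012. In group 10, HOXA10, which also patterns the uterus, was listed at 0 in JJ012 and stood at 3.80 and 3.65 FPKM in 143B. HOXD10 had 0.10 and 0 FPKM in JJ012 and 1.04 and 0.42 FPKM in 143B. Group 11 shapes the sacrum and the middle segment of the limb. HOXA11 was listed at 0 in JJ012 and stood at 4.27 and 3.32 FPKM in 143B, while HOXC11 had 5.08 and 2.39 FPKM in JJ012 and 1.23 and 1.46 FPKM in 143B. Group 13 acts at the ends of the body and the limbs. HOXA13, a gene of the hand and foot, had 0.01 and 0 FPKM in JJ012 and 1.33 and 1.18 FPKM in 143B, and HOXD13, also a gene of the digits, had 0.04 and 0.03 FPKM and 0.96 and 1.35 FPKM. HOXB13, known from the prostate and the tail end, went the other way with 4.57 and 1.51 FPKM in JJ012 and 0.58 and 0.75 FPKM in 143B. HOXC13, which acts in hair and nails, had 7.88 and 5.55 FPKM in JJ012 and 3.58 and 3.58 FPKM in 143B.

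The HOXA genes without counts in JJ012 were neighbours, in a stretch set after the values were seen. From HOXA7 to HOXA13 (chr7:27153716-27200091 in the table's GRCh38 coordinates, 46.4 kb), the table holds 17 genes, of which 5 are HOX genes. All 17 had 3 counts or fewer in both JJ012 libraries, 15 had 0, and the summed counts were 2 and 0. In 143B the same stretch held 1085 and 1006 counts, and 9 of the 17 genes had 3 or fewer. The antisense RNAs HOXA10-AS and HOXA11-AS, named here after their values were seen, followed the same pattern with 0 counts in JJ012 and 36 and 27 and 70 and 56 counts in 143B. Just beside it, HOXA4, HOXA5 and HOXA6 had 157 and 37, 77 and 38, and 19 and 13 counts in JJ012. HOXA7 itself had only 1 and 6 counts in 143B. In HOXD the stretch from HOXD8 to HOXD13 (chr2:176092721-176132695, 40.0 kb, 6 genes, all HOX) had 10 and 1 counts in JJ012 and 306 and 359 in 143B, while HOXD4 beyond it had 44 and 47 in JJ012. With 3 counts as the limit that 0 allows, HOXA9 in JJ012 could be as high as 0.156 CPM in the control and 0.186 CPM with melatonin. A stretch missing from the genome and one that is not expressed cannot be told apart in this table.

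The comparison of the control libraries asked how far the HOX pattern differs between an untreated chondrosarcoma and osteosarcoma line. A gene was counted as called when the log2 ratio of FPKM + 1 was 0.58 or more in size, the study's fold threshold, among genes with at least 1 FPKM in 1 of the 2 libraries. Of 28 HOX genes that passed, 14 were called higher in 143B (50.0%) and 8 lower (28.6%), against 27.4% and 41.3% of all 16929 genes tested. The median log2 ratio was 0.57 for the HOX genes and -0.29 for all genes. A gene that passed only through the line where it is high had to differ, which holds for 11 genes present only in 143B and 2 only in JJ012. Of the 15 HOX genes at 1 FPKM or more in both controls, 4 were higher and 6 lower in 143B, with a median of -0.01, against 22.9% and 33.6% of the 10760 genes present in both. By cluster, these 15 held 7 HOXC genes, of which 6 were lower in 143B and 0 higher, and 6 HOXB genes, of which 3 were higher and 0 lower. HOXA4, the 1 HOXA gene among them, was not called, and HOXD4, the 1 HOXD gene, was higher.

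**Figure D3:**
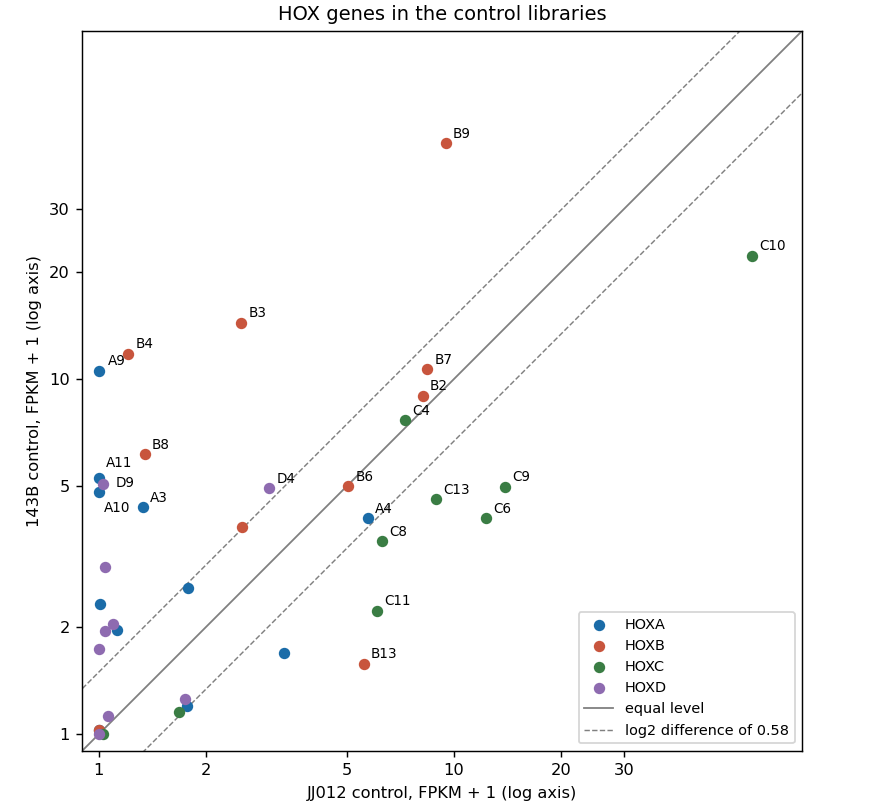
FPKM + 1 of the 39 HOX genes in the JJ012 control (x) and the 143B control (y), both on log axes, coloured by cluster; the solid line marks equal levels and the dashed lines a log2 difference of 0.58. HOXC genes lie at or below the solid line except HOXC4, and HOXA9, HOXA10, HOXA11 and HOXD9 lie at the left edge.

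The CPM ratio, with its exact 95% interval, gave sizes without a pseudocount. HOXC10 was 3.21-fold lower in the 143B control (log2 ratio -1.68, interval -1.80 to -1.57), and HOXC11 was 4.12-fold lower (-2.04, interval -2.45 to -1.65). HOXC6 and HOXC9 were 3.69-fold and 3.24-fold lower. HOXB9 was 5.31-fold higher (2.41, interval 2.25 to 2.56), HOXB3 8.81-fold higher (3.14, interval 2.93 to 3.35) and HOXB4 51.9-fold higher (5.70, interval 4.70 to 6.92), on 8 counts in JJ012. Against the floor of 3 counts in the JJ012 library, HOXA9 was 185-fold, HOXA10 90.3-fold and HOXA11 73.0-fold higher in 143B. These folds leave out counting error in 143B. The exact intervals of the 3 genes began at log2 ratios of 7.23, 6.19 and 5.88. HOXB13 was 7.88-fold lower (-2.98, interval -3.60 to -2.42) and HOXA5 3.35-fold lower. The intervals of HOXB2, HOXB6 and HOXC4 included 0, at log2 ratios of 0.15, -0.02 and 0.08, with bounds from -0.32 to 0.38.

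The melatonin libraries formed a separate pair of the same lines. There 29 HOX genes passed, 17 were higher in 143B (58.6%) and 1, HOXC10, was lower (3.45%), against 23.2% and 38.8% of 16239 genes, with medians of 1.04 and -0.28. Of these, 13 passed only through 143B and 2 only through JJ012. The 14 genes at 1 FPKM or more in both libraries held 4 higher and 1 lower, with a median of 0.14, against 17.4% and 32.9% of the genes present in both. HOXC10 was 2.91-fold lower in 143B (log2 ratio -1.54, interval -1.68 to -1.41) and HOXB9 9.78-fold higher (3.29, interval 3.06 to 3.53). Of the 6 HOXC genes called lower between the controls, 5 were not called here. These comparisons of lines share libraries with the melatonin comparisons that follow. With a pseudocount of 0.1 in place of 1 FPKM, 7 HOX genes were called lower and 17 higher, beside 43.2% and 25.8% of all genes.

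In JJ012, HOX genes were lower with melatonin than without. The summed HOX counts were 401 CPM in the control and 217 CPM with melatonin, 1.85-fold lower (log2 ratio -0.89, interval -0.95 to -0.83). Of 17 HOX genes tested, 11 were called lower (64.7%) and 0 higher, against 18.6% lower and 19.6% higher of all 15794 genes tested, and 14.7% lower among protein-coding genes within the FPKM range of the tested HOX genes. The median log2 fold change was -0.84 for the HOX genes and 0.008 for all genes. The 16 HOX genes at 1 FPKM or more in both libraries held the same 11 calls. By the counting interval, 16 of the 25 HOX genes with a ratio were below 0, 0 were above and 9 included 0. The share of all genes by this interval was not computed, so these counts have no background.

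Most of the calls were in HOXC, where 6 of the 7 tested genes were lower, against 4 of 7 in HOXB, 1 of 2 in HOXA and 0 of 1 in HOXD. HOXC6 went from 750 to 179 counts, 3.52-fold lower in CPM (log2 ratio -1.82, interval -2.06 to -1.58). HOXC9 went from 412 to 114 counts and was 3.04-fold lower (-1.60, interval -1.91 to -1.30). HOXC4, HOXC8 and HOXC11 were 2.87-fold, 2.48-fold and 2.13-fold lower. The dominant HOXC10, from 3098 to 1682 counts, was lower by less, 1.55-fold (-0.63, interval -0.72 to -0.54), and HOXC13 was 1.42-fold lower (-0.51, interval -0.76 to -0.26) and not called. The interval of HOXC10 lay above those of its neighbours HOXC9 and HOXC11, so the genes of 1 cluster were not lower to the same degree. HOXC without HOXC10 was 2.51-fold lower, and all HOX genes without HOXC10 2.14-fold lower.

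Among the other clusters, HOXA4 was 3.56-fold lower (-1.83, interval -2.39 to -1.31), from 157 to 37 counts. HOXB13, HOXB7 and HOXB9 were 3.03-fold, 2.56-fold and 2.2-fold lower, and HOXB2 was 1.75-fold lower. HOXB3 was 1.94-fold and HOXA5 1.70-fold lower in CPM, with intervals below 0, and neither was called on the FPKM + 1 scale. HOXB5 (-0.40), HOXB6 (0.06) and HOXD4 (0.35) had intervals that included 0. The HOXD sum, which held 53 and 47 counts of HOXD3 and 44 and 47 of HOXD4, was 5.67 and 5.88 CPM (log2 ratio 0.05, interval -0.36 to 0.46). By position, central genes were 2.27-fold lower, and anterior and posterior genes 1.72-fold and 1.73-fold.

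**Figure D4:**
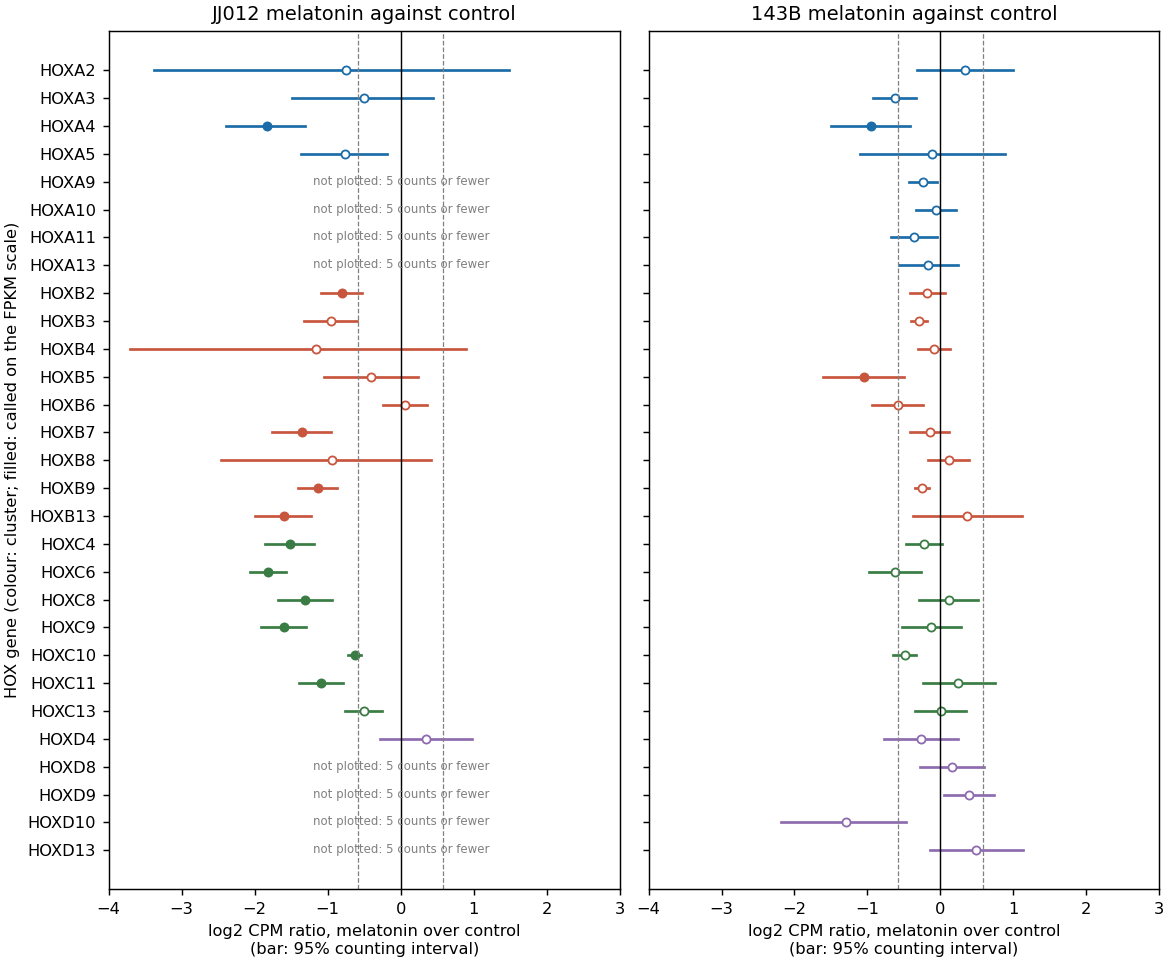
Log2 CPM ratio, melatonin over control, for HOX genes of paralogue numbers 2 to 13 at 1 FPKM or more in at least 1 library, in JJ012 (left) and 143B (right); bars are exact 95% counting intervals, filled points are called on the FPKM + 1 scale and dashed lines mark 0.58 either way. The 8 genes with 5 counts or fewer in each JJ012 library are not plotted there. In JJ012 the called points lie between -1.83 and -0.63, while in 143B most bars cross 0.

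Gene length and base composition moved with the JJ012 result. Over 11534 protein-coding genes, the log2 fold change had a Spearman correlation of 0.399 with exonic length and -0.306 with GC content, and the tested HOX genes were shorter (median 2417 against 5236 bases) and richer in GC (54.5% against 48.4%). After the running median over length was subtracted, 10 of the 17 HOX genes were called lower and 1, HOXD4, higher, with a median of -0.72. Of all genes 16.4% were then lower and 18.1% higher. After both length and GC trends were subtracted the counts were again 10 and 1, with a median of -0.66. The shares of all genes were then 15.7% lower and 17% higher. Rescaling to TPM moved the median of all tested genes to 0.27 and their calls to 34.6% higher and 15.7% lower, and left 9 HOX genes lower, 0 higher and a HOX median of -0.76. The calls of HOXB2 and HOXC10 were lost under TPM and with either trend subtracted, and that of HOXC10 also with TMM factors. The part of length and base composition in the result was not tested further.

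In 143B few HOX genes were called. Of 28 tested, 2 were called lower (7.14%) and 0 higher, against 6.65% lower and 6.09% higher of all 14135 genes and 2.62% lower among protein-coding genes within the FPKM range of the tested HOX genes. By the counting interval, 12 of the 36 HOX genes with a ratio were below 0, 1 was above and 23 included 0. Here too the share of all genes by this interval was not computed. The median log2 fold change was -0.17 for the HOX genes and 0.026 for all genes. HOXA4 went from 84 to 47 counts and was 1.93-fold lower (-0.95, interval -1.50 to -0.42). HOXB5 went from 84 to 44 counts and was 2.06-fold lower (-1.04, interval -1.61 to -0.50). Both calls were lost when the interval itself had to lie beyond 0.58. The leading gene HOXB9 was 1.19-fold lower (-0.25, interval -0.35 to -0.16), HOXC10 1.40-fold lower (-0.49, interval -0.64 to -0.34) and HOXA9 1.18-fold lower (-0.24, interval -0.43 to -0.05). HOXD9 was the 1 gene with counts in both libraries whose interval lay above 0 (1.31-fold, 0.39, interval 0.04 to 0.74). HOXD10, next to it, had 41 and 18 counts and was 2.46-fold lower (-1.30, interval -2.19 to -0.47). The summed HOX counts were 520 and 437 CPM, 1.19-fold lower (-0.25, interval -0.29 to -0.20).

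**Figure D5:**
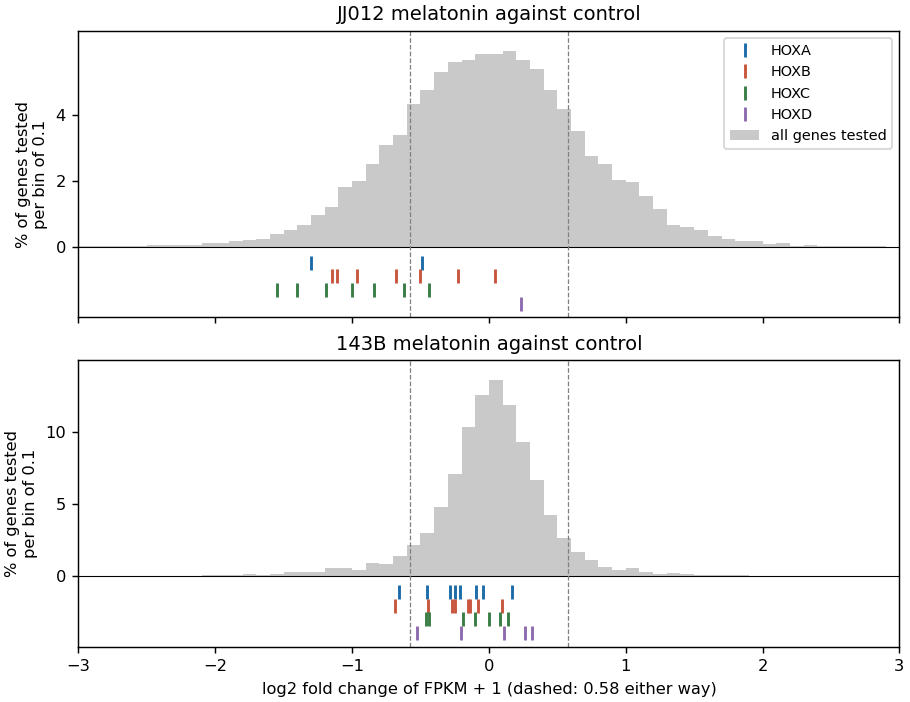
Percent of all tested genes per bin of 0.1 in log2 fold change of FPKM + 1, melatonin against control, for JJ012 (top) and 143B (bottom), with each tested HOX gene as a tick below, coloured by cluster; dashed lines mark 0.58 either way. In JJ012, 11 of 17 ticks lie at or left of the lower line, and in 143B 2 of 28 do.

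The 2 lines were also compared in the change itself, as the 143B log2 ratio minus that of JJ012. For 24 HOX genes with enough counts, the median difference was 0.91. In 12 the counting interval lay above 0, in 1 below and in 11 it included 0. The same difference was not computed over all genes, so these counts have no background. Of all genes, 19.6% were called higher and 18.6% lower in JJ012, against 6.09% and 6.65% in 143B. HOXB13 differed by 1.95 (interval 1.17 to 2.74), HOXC9 by 1.47 (0.98 to 1.96) and HOXC8 by 1.41 (0.88 to 1.95). HOXC10 differed by 0.14 (-0.03 to 0.31), so its ratios of -0.63 and -0.49 were not told apart. HOXB6 was the exception at -0.64 (-1.09 to -0.20), with 202 and 177 counts in JJ012 and 165 and 119 in 143B. No replicate spread stands behind these intervals. With the lines taken as 2 replicates of melatonin in 1 model (edgeR quasi-likelihood test, line as a block, 1 residual degree of freedom), 0 of 32 HOX genes passed an adjusted p of 0.05, against 0.0622% of 19301 genes higher and 0.29% lower. At an unadjusted p of 0.05 in that model, 3 HOX genes were lower (9.38%) and 0 higher, beside 3.41% and 2.49% of all genes. The 3 were led by HOXC6 (log2 fold change -1.24, adjusted p = 0.328, lower in both lines).

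The partners of HOX proteins on DNA, the TALE homeodomain factors, were tested for 5 of 9 genes in each line. In JJ012 0 were higher and 1 lower, beside 19.6% and 18.6% of all genes, and in 143B 0 were called, beside 6.09% and 6.65%. The called gene was MEIS3, at 19.31 and 10.60 FPKM in JJ012 (log2 CPM ratio -0.87, interval -0.98 to -0.75) and 4.51 and 5.89 FPKM in 143B. PBX3 had the highest value in a control library, with 4.90 and 6.71 FPKM in JJ012 and 26.68 and 25.79 FPKM in 143B.

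Noncoding RNAs transcribed within the HOX clusters were mostly lower with melatonin in JJ012. Of 9 tested of 18, 8 were called lower and 0 higher with a median of -0.77, beside 18.6% and 19.6% of all genes. In 143B 3 of 10 were lower and 0 higher with a median of -0.26, beside 6.65% and 6.09%. HOTAIR, which lies antisense between HOXC11 and HOXC12 and is known as a partner of Polycomb complexes, went from 515 to 86 counts in JJ012 (8.69 and 1.73 FPKM, log2 CPM ratio -2.33, interval -2.68 to -2.0). In 143B it had 30 and 27 counts. HOTAIRM1, in the HOXA cluster, had the highest value in a control library, with 9.81 and 5.59 FPKM in JJ012 and 16.70 and 12.81 FPKM in 143B. HOXC-AS1 went from 8.79 to 3.98 FPKM and HOXC-AS2 from 8.76 to 5.37 FPKM in JJ012, and HOXB-AS2 from 5.66 to 3.24 FPKM in 143B. The strand setting of the counting is not given in the sources used here, so reads of overlapping sense and antisense genes cannot be separated. By GENCODE 29 exons, 80.5% of HOXD4, 47.3% of HOXA4 and 32.9% of HOXB6 overlap other genes, whereas HOXB7, HOXB9, HOXC8 and HOXC11 overlap none. On the same strand the overlap was 80.5%, 31.0% and 16.6% of these 3 genes. On the other strand it was 0%, 16.3% and 16.3%, and the strand setting bears on this part only. Once length and GC trends were subtracted, 3 of the 9 noncoding RNAs tested were lower and 1 higher in JJ012. Of all genes 15.7% were then lower and 17% higher.

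Of the other position genes of the limbs and axis, 10 of 27 were tested in JJ012, where 1 was higher and 1 lower with a median of 0.09, beside 19.6% and 18.6% of all genes. In 143B 1 of 14 was higher and 0 lower, beside 6.09% and 6.65%. TBX15, a T-box gene of limb and skull mesenchyme, was the gene called higher in JJ012, with 2.87 and 5.10 FPKM (log2 CPM ratio 0.83, interval 0.59 to 1.07), and had the highest value in a control library, with 71.73 and 66.94 FPKM in 143B. The gene called lower in JJ012 was PRRX1 (2.2 and 1.07 FPKM) and the one called higher in 143B was DLX5 (1.73 and 3.64 FPKM), both named after their values were seen.

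Chromatin regulators that maintain or silence HOX clusters gave 6 higher and 1 lower of 16 in JJ012, with a median of 0.33, beside 19.6% and 18.6% of all genes. In 143B 0 of 16 were called, beside 6.09% higher and 6.65% lower. KMT2A, the histone methyltransferase that keeps HOX genes active, went from 2.22 to 6.0 FPKM in JJ012 (log2 CPM ratio 1.44, interval 1.34 to 1.53) and had 21.07 and 19.68 FPKM in 143B. DOT1L went from 7.46 to 12.57 FPKM, KDM6B from 12.59 to 19.37 FPKM, and the Polycomb genes EZH1, SUZ12 and CBX2 from 9.77 to 16.13, 7.78 to 13.53 and 3.03 to 5.10 FPKM in JJ012. CBX7, named after its value was seen, was the 1 called lower, at 3.60 and 1.79 FPKM. PSIP1 had the highest value in a control library, with 3.12 and 3.43 FPKM in JJ012 and 35.41 and 34.69 FPKM in 143B. With the length trend subtracted, 2 of the 16 were higher and 1 lower in JJ012, beside 18.1% and 16.4% of all genes.

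Genes of retinoic acid signalling, an inducer of HOX genes in the embryo, gave 0 higher and 2 lower of 7 tested in JJ012, beside 19.6% and 18.6% of all genes, and 0 higher and 2 lower of 10 in 143B, beside 6.09% and 6.65%. CRABP2, which carries retinoic acid to its nuclear receptor, went from 133 to 23.1 FPKM in JJ012 (log2 CPM ratio -2.53, interval -2.68 to -2.38) and from 58.5 to 39.8 FPKM in 143B. RXRA, a partner receptor, was the other call in JJ012, at 7.17 and 4.34 FPKM. DHRS3, a retinal reductase, went from 7.02 to 3.99 FPKM in 143B, and ALDH1A3, an enzyme that makes retinoic acid and is named after its value was seen, from 4.99 to 2.26 FPKM. The list's JJ012 median of -0.09 turned to 0.14 under TPM.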

How the data were processed

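The authors deposited 1 table with whole-number counts and FPKM per gene for the 4 libraries, each from poly(A) RNA read as paired ends. Per the labels, the submitters' processing notes name cutadapt 1.9.1, HISAT2 2.2.1, HTSeq 0.6.1, DESeq2 and hg38, with no order given. The deposited FPKM are counts per exonic length and library total, rounded to 2 decimals. The members, lists and thresholds were chosen with earlier results of these data known. Fold changes were log2 ratios of FPKM + 1 over genes at 1 FPKM or more in 1 of 2 libraries, called at 0.58 across the whole table, and ratios of CPM had exact (Clopper-Pearson) 95% intervals. With 1 library per condition no test within a line could be run, and 1 model of both lines (edgeR, line as a block) was added after seeing the data. Every HOX gene at 1 FPKM or more is named, except for values not reported here, as are, of each list, called genes at 5 FPKM or more and the highest in the controls. Alternatives included TPM, TMM factors (edgeR 4.0.16, R 4.3.3), other filters and thresholds, and length and GC trends from GENCODE 29, the last chosen after seeing the data. GENCODE 29 gave the table's own interval for 12 of 39 HOX genes and an overlapping one for all 39. Homeobox identity came from translated transcripts. Python 3.11.15, pandas 2.3.3 and scipy 1.17.1 were used, and the fold, interval and model code was tested on simulated data.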

Additional observations from a re-analysis of the deposited data

How the results depend on the processing

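Each condition has 1 library, so the lines could be paired only as replicates of melatonin. With the line as a replicate block (edgeR, adjusted p under 0.05), 0 of 32 HOX genes were called, beside 0.0622% of all genes higher and 0.29% lower. The 11 calls in JJ012 and 2 in 143B taken alone rest on the fold threshold of 0.58 without a test. The 2 rules are unlike, so the 0 does not show that those calls are absent. In the edgeR model 3 HOX genes (9.38%) were lower at an unadjusted p under 0.05, beside 3.41% of all genes. That model's spread includes any difference between the lines in their change, and leaving out a library leaves it no residual degrees of freedom. No called HOX gene was called in the opposite direction under any alternative where it was tested. In JJ012 with melatonin, 7 of the 11 lower calls held under every other alternative where the gene was tested, a threshold of 1 left 7, and 1 gene was called higher after the length trend, alone or with GC, was subtracted. In 143B with melatonin the 2 lower calls became 5 with a pseudocount of 0.1 FPKM and 6 under TPM. They became 0 with a filter of 5 FPKM, a threshold of 1 or an interval beyond 0.58. Over all genes the lower share went from 6.65% to 10.1% with that pseudocount and 10.8% under TPM. It was 3.76% with that filter, 2.74% at that threshold and 2.3% by that interval. Between the controls, a filter of 5 FPKM gave 11 calls, 5 of them higher in 143B, beside 28.9% higher and 40.5% lower of all genes. The 8 lower calls became 4 without the length trend, 4 without length and GC trends and 5 at a threshold of 1. Over all genes the lower share went from 41.3% to 29.8%, 29.9% and 28.7% in these settings. Splits between the controls moved with scale too. For HOX genes, 14 higher and 8 lower became 19 and 4 without the length trend and 16 and 8 under TPM. Over all genes, 27.4% and 41.3% became 32.7% and 29.8% without the length trend and 37.2% and 36.2% under TPM. In JJ012 with melatonin the medians of the TALE and retinoic acid lists turned from -0.18 and -0.09 to 0.08 and 0.14 under TPM. Between the melatonin libraries, the 1 lower call became 7 with a pseudocount of 0.1 FPKM and 2 without a filter. It became 5 under TPM and 6 on CPM. Over all genes the lower share went from 38.8% to 43.2%, 22.1%, 41.2% and 39% in these settings, in that order. A filter of 5 FPKM gave 10 calls with 9 higher, beside 23.2% higher and 39% lower of all genes. At a limit of 5 FPKM, 10 and 2 HOX genes were present in JJ012 and 9 and 10 in 143B. The causes were not tested, except that fewer genes enter under a filter of 5 FPKM or pass a threshold of 1. Of the remaining single-gene and list values, 154 moved by more than their counting interval or by over 1.5 times and 1153 did not. Counts limit HOXA9, HOXA10, HOXA11 and HOXA7 in JJ012, where 0 counts allow up to 0.156 or 0.186 CPM.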
